A study of Homo sapiens with 6 samples.

Results

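The genes described here make and load HLA class I molecules: the light chain B2M, the heavy chains HLA-B, HLA-C, HLA-E and HLA-F, the peptide transporter subunit TAP1, the loading factors TAPBP and TAPBPL, and the transcriptional activator NLRC5. They were taken by symbol from a table of 60671 genes, where each of the 9 stood on 1 Ensembl identifier, and all 9 were among the 20120 genes with enough counts to test. The libraries came from MM.1S, a human multiple myeloma cell line, that is, a line of malignant plasma cells. CD38 KO libraries (3) came from 1 CRISPR/Cas9 clone, called E9 in the sample names, that lacks CD38, an NAD-consuming surface enzyme, and live cells without surface CD38 were sorted. WT libraries (3) came from live CD38-positive cells of the parental line, and both lines carried GFP and the click beetle red luciferase from a lentivirus. Each group of 3 was prepared from 1 sorted line, and the sort gates differed as the genotypes do. The p-values therefore set this clone against this parental population, and clone and knockout cannot be told apart.

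Nearly every nucleated cell shows fragments of its own proteins on class I molecules, which cytotoxic T cells read. Proteasomes cut proteins, the TAP transporter carries the peptides into the endoplasmic reticulum, and tapasin and related factors help a heavy chain paired with B2M take up a peptide. Without B2M most heavy chains do not reach the cell surface. HLA-E and the amount of class I on a cell are also read by natural killer cells, and myeloma cells release B2M into the blood, where its level is used in staging the disease.

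Total counts ranged from 61515519 to 65709440 in CD38 KO libraries and from 63606445 to 72335496 in WT libraries. CD38 itself had 51, 80 and 48 counts in CD38 KO libraries against 3148, 2678 and 2545 in WT libraries, so the labels matched the target. Levels below are CPM, the share of a library's counts on a fixed scale, after TMM factors, a correction for differences in RNA composition. A gene was called changed at a Benjamini-Hochberg adjusted p under 0.05 in edgeR's quasi-likelihood test over all tested genes. By this rule 44.4% of all tested genes were changed, 22.8% higher and 21.6% lower in CD38 KO, with a median log2 fold change of 0.00021. Of 25 markers of B, T and NK cells, monocytes and fibroblasts, 18 were under 1 CPM in every library, among them MS4A1, PAX5, CD3D, NKG7, CD14 and LYZ. LUM was at 0 in every library. The other 7 were CR2, CD3E, NCAM1, KLRF1, CSF1R, ITGAM and PDGFRB, of which CR2 had 18.9 to 19.6 CPM in CD38 KO and 48.5 to 54.3 CPM in WT, and CD3E 4.61 to 5.25 CPM in CD38 KO and 0.892 to 1.03 CPM in WT. The 8 plasma cell markers summed to 9088 to 9121 CPM in CD38 KO libraries and 7139 to 7145 CPM in WT libraries, with 5 higher, 2 lower and 1 not past the threshold, and their part in the results below was not tested. Fewer cells with a transcript and less transcript per cell cannot be told apart in bulk RNA.

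Among the 9 genes the light chain moved against most of the others. B2M fell, 7 others rose (HLA-B, HLA-E, HLA-F, TAP1, TAPBP, TAPBPL and NLRC5), and HLA-C did not pass the test. The share of changed genes, 8 of 9, stands beside 44.4% over all tested genes. In 8 of the 9, CD38 KO and WT libraries had no CPM range in common, beside 52.5% of all tested genes. These genes were chosen with results of the same libraries known, so the count is a description. The log2 fold changes ran from -0.78 for B2M to 1.10 for NLRC5, with a median of 0.27.

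**Figure D1:**
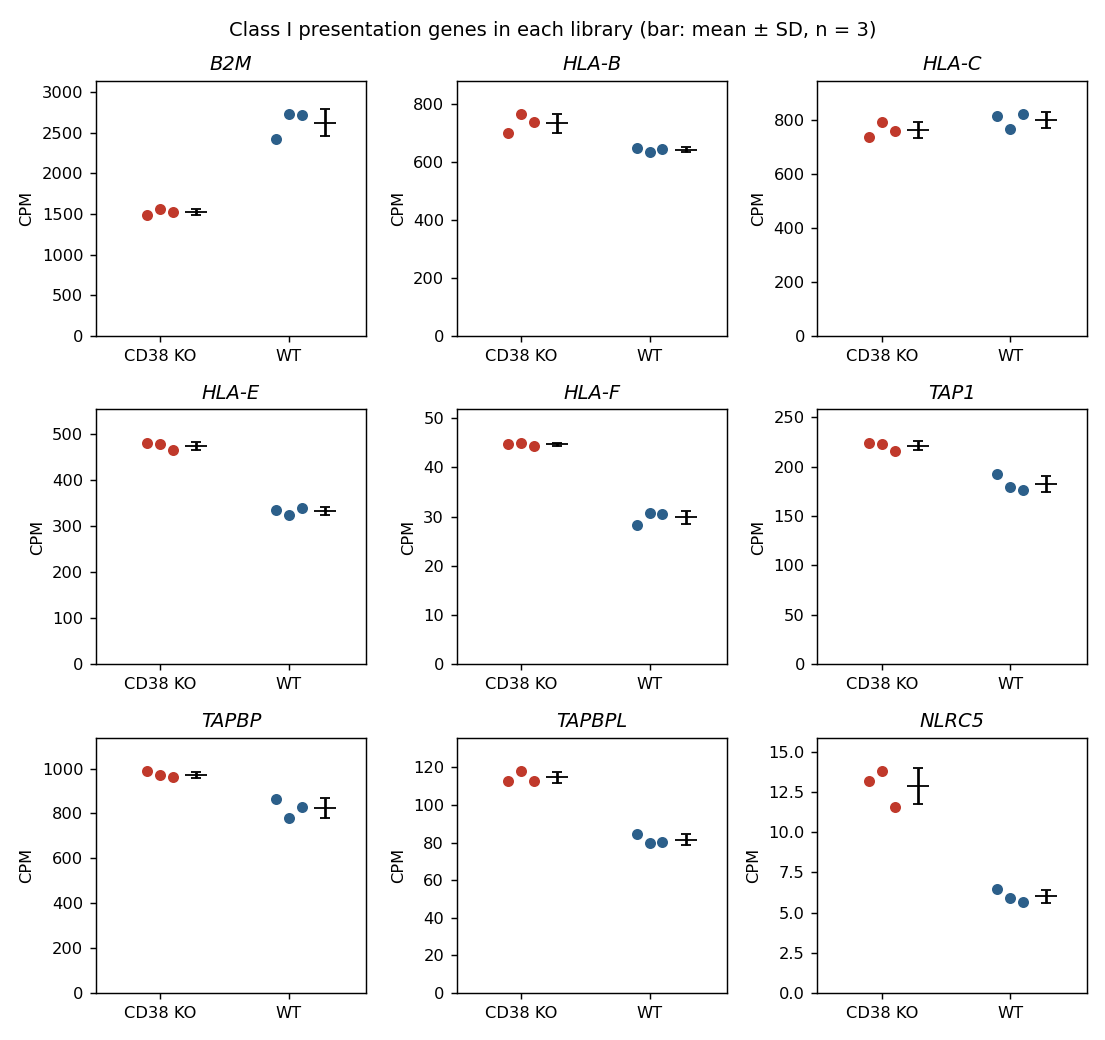
Level of each of the 9 genes in CPM, with 1 point per library, CD38 KO in red and WT in blue, and the mean ± SD of 3 libraries beside each group. B2M lies between 1483 and 1566 CPM in CD38 KO libraries and between 2428 and 2726 CPM in WT libraries, while HLA-C is the only gene of the 9 whose groups overlap.

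B2M (ENSG00000166710, chromosome 15, 44711487 to 44718877, plus strand, in GENCODE 29 on GRCh38) encodes the invariant light chain of class I molecules. It had 1483, 1566 and 1523 CPM in CD38 KO libraries, against 2428, 2726 and 2715 CPM in WT libraries. The groups did not overlap, and the lowest WT library stood well above the highest CD38 KO library. The mean was 1524 ± 41.4 CPM in CD38 KO and 2623 ± 169 CPM in WT (SD, n = 3 each), which is 0.581 of the WT level. The log2 fold change was -0.78 ± 0.0418 (SE, 95% interval -0.87 to -0.70), with an edgeR adjusted p of 8.58e-12. In raw counts B2M held 94816, 93181 and 94302 in CD38 KO libraries and 179683, 180643 and 178330 in WT libraries, so counting error is small beside the difference.

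HLA-E and HLA-F, the 2 non-classical heavy chains of the set, rose most among the heavy chains. HLA-E (ENSG00000204592, chromosome 6, 30489467 to 30494205, plus strand) displays signal peptides of other class I chains to the NK cell receptor NKG2A. Its level was 481, 479 and 465 CPM in CD38 KO libraries and 336, 324 and 340 CPM in WT libraries, with no overlap. The log2 fold change was 0.51 ± 0.0373 (SE, edgeR adjusted p = 3.33e-10), or 1.42-fold. HLA-F (ENSG00000204642, chromosome 6, 29722775 to 29738528, plus strand), a chain of restricted expression that NK cell receptors can also bind, had 44.7, 45.0 and 44.3 CPM in CD38 KO libraries and 28.4, 30.8 and 30.5 CPM in WT libraries. It had the fewest counts of the 4 heavy chains, also per kilobase of exon, and was higher in every CD38 KO library. The log2 fold change came to 0.58 ± 0.0597 (SE), with an adjusted p of 6.55e-08 in edgeR.

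HLA-B and HLA-C, the classical chains that present peptides to T cells and bind killer immunoglobulin-like receptors, showed smaller differences. HLA-B (ENSG00000234745, chromosome 6, 31269491 to 31357188, minus strand) had 698, 763 and 735 CPM in CD38 KO libraries and 648, 633 and 644 CPM in WT libraries. The groups did not overlap, and the rise was small at 1.14-fold, or 0.19 ± 0.0379 (SE) on the log2 scale, with an adjusted p of 0.000290 in edgeR. HLA-C (ENSG00000204525, chromosome 6, 31268749 to 31272130, minus strand) had 738, 794 and 758 CPM in CD38 KO libraries and 816, 767 and 821 CPM in WT libraries. These ranges overlap, since the highest CD38 KO library exceeded the lowest WT library. The log2 fold change of HLA-C was -0.0700 with a 95% interval of -0.15 to 0.011 (edgeR adjusted p = 0.157), so a fall of the size seen for B2M lies outside the interval. HLA-C was called lower in 3 settings, with library size alone as the scaling (log2 fold change -0.15, adjusted p = 0.00109), without CD38 KO replicate 2 (-0.0986, 0.0351) and without WT replicate 2 (-0.10, 0.0404).

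The number of heavy chain counts per B2M count was higher in the clone. Summed over HLA-B, HLA-C, HLA-E and HLA-F it was 1.32, 1.33 and 1.31 in CD38 KO libraries and 0.753, 0.644 and 0.676 in WT libraries. The mean was 1.32 ± 0.00731 in CD38 KO and 0.691 ± 0.0564 in WT (SD, n = 3 each), 1.91 times as high in the clone. A ratio of 2 counts from the same library does not depend on how libraries are scaled. Taken singly, the ratio to B2M was 1.96 times as high in the clone for HLA-B, 1.63 for HLA-C, 2.44 for HLA-E and 2.57 for HLA-F. These are ratios of RNA counts and say nothing of how many complete molecules the cells made.

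**Figure D2:**
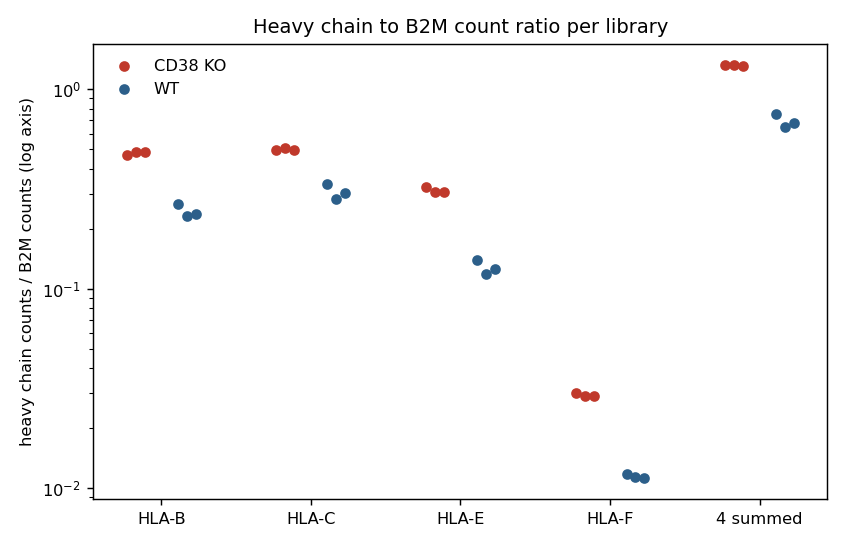
Counts of each heavy chain, and of all 4 summed, divided by B2M counts of the same library (log axis), with 1 point per library, CD38 KO in red and WT in blue. In all 5 columns the 3 CD38 KO libraries lie above the 3 WT libraries, at 1.31 to 1.33 against 0.644 to 0.753 for the sum.

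Counts of different genes can be compared only per length. Over the merged exons of all GENCODE 29 transcripts, B2M stood at 251 ± 6.81 CPM per kilobase in CD38 KO and 431 ± 27.9 in WT (SD, n = 3 each). HLA-C stood at 305 ± 11.3 CPM per kilobase in CD38 KO and 320 ± 11.8 in WT. B2M was therefore 0.823 of HLA-C in CD38 KO and 1.35 times HLA-C in WT. The order of the 2 genes in CD38 KO depends on the length used: by the longest APPRIS principal transcript, a choice of the main coding form, B2M was 1.80 times HLA-C in CD38 KO and 2.95 times in WT. In both groups and by both lengths HLA-C exceeded HLA-B, HLA-B exceeded HLA-E, and HLA-F and NLRC5 were the lowest of the 9. HLA-B at 240 ± 10.6 and B2M at 251 ± 6.81 CPM per kilobase of merged exons lay within their spread in CD38 KO.

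Heavy chain genes are alike in sequence, and reads of this cell line's alleles may be counted to a relative. In the GENCODE 29 reference transcripts, 2.72% of the 50-base words of HLA-B, 5.38% of those of HLA-C, 3.94% of those of HLA-E and 0.521% of those of HLA-F also occur in another class I gene or pseudogene. For B2M, TAP1, TAPBP, TAPBPL and NLRC5 the share was 0. The HLA-B record of that annotation also holds transcripts that run into HLA-C, with 35 exon bases in common. HLA-G, a heavy chain known from placenta, was near 5 CPM in both groups and did not pass the test (log2 fold change -0.0829, edgeR adjusted p = 0.676). Over 18 class I genes and pseudogenes together the counts per B2M count were 1.93 ± 0.0122 in CD38 KO and 1.01 ± 0.0889 in WT (SD, n = 3 each), 1.92 times as high in the clone.

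The promoters of B2M and the heavy chains are known to share control elements, and they are shown here because B2M fell while 3 of the 4 heavy chains rose. As background, the X2 and Y boxes form part of the module through which NLRC5 acts with RFX, CREB and NF-Y proteins, and an interferon-stimulated response element binds IRF proteins. RefSeq (GRCh38.p14) gave promoters for 7 of the 9 genes, in 9 windows, and the 250 bases before the start site were read on the gene's own strand. No window was available for NLRC5 or for HLA-E, a heavy chain that rose, while HLA-C, shown here, did not pass the test. Capitals mark the Y box (ATTGG or its reverse complement), the X2 half-site (TGACGC) and the IRF core (AANNGAAA), each searched on both strands.
B2M promoter (chr15:44711267-44711516, plus strand): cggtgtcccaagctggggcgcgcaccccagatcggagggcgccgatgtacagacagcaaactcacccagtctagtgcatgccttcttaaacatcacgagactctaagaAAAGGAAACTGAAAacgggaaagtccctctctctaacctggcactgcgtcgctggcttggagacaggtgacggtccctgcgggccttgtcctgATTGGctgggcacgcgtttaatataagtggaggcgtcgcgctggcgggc
HLA-B promoter (chr6:31357180-31357429, minus strand): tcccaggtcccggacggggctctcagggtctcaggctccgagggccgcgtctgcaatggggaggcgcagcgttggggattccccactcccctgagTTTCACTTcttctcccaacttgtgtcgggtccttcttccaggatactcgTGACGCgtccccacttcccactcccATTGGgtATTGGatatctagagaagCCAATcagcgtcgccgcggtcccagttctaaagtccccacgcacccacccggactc
HLA-C promoter (chr6:31272093-31272342, minus strand): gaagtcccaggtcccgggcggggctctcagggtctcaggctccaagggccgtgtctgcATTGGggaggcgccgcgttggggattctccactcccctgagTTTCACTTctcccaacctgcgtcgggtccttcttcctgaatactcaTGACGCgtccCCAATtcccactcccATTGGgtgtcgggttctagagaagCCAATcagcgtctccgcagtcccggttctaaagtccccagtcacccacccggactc
HLA-F promoter (chr6:29723184-29723433, plus strand): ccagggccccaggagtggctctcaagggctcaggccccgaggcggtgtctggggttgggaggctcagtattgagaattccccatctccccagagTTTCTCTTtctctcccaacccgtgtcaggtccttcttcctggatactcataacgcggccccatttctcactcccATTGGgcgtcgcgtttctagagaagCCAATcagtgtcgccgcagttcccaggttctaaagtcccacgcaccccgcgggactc

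B2M has 1 Y box at -49 and a pair of overlapping IRF cores from -142, and no match to the X2 half-site as spelled. HLA-B and HLA-C have an IRF core at -155 and -151, an X2 half-site at -106 and -105 and Y boxes on its downstream side, and HLA-C has a further Y box at -192. HLA-F has an IRF core at -156 and Y boxes at -82 and -57 but no match to the X2 half-site letters. Over 34943 promoter windows of the same length 32.0% hold the Y box letters, 7.64% the X2 half-site, 20.3% the IRF core and 0.358% all 3. Of the 9 windows here 5, 2 and 7 hold them. A degenerate NF-kB half-site pattern, not marked in the sequences, occurs in 5 of the 9 windows and in 18.9% of all, and its matches on both strands overlap in HLA-B. Aligned end to end, the HLA-B and HLA-C windows were identical at 89.0% of columns, HLA-B and HLA-F at 80.4%, and HLA-B and B2M at 49.5%. A match of letters is not a bound site.

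**Figure D3:**
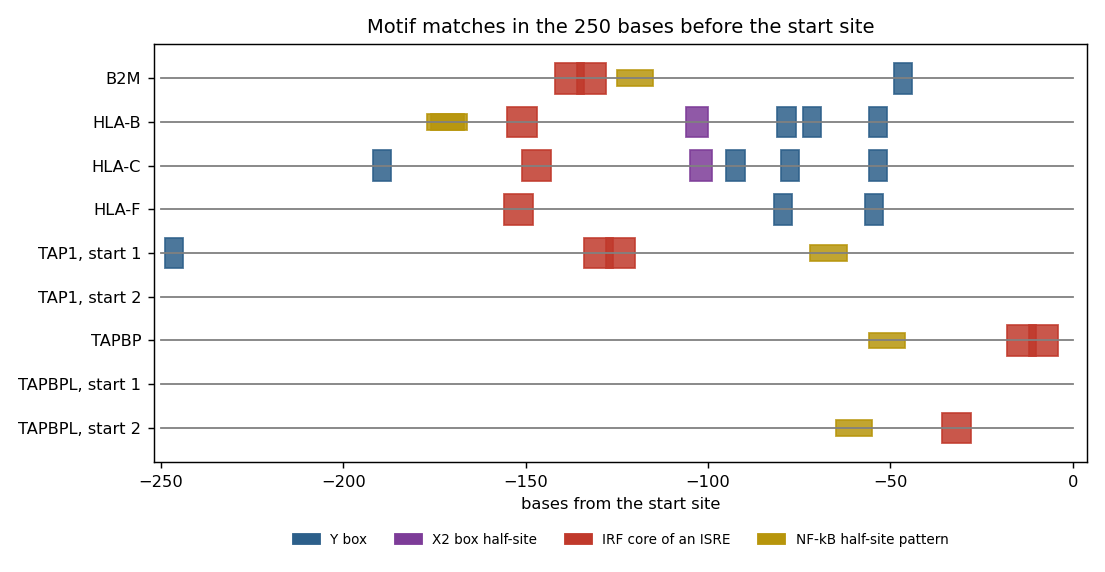
Matches to the 4 motifs in the 250 bases before each RefSeq start site, drawn to scale by distance from the start. IRF cores lie between -156 and -121 in B2M, HLA-B, HLA-C, HLA-F and the first start of TAP1, and within 40 bases of the start in TAPBP and the second start of TAPBPL; 2 windows hold none of the 4.

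The genes of peptide transport and loading among the 9 all rose, where 22.8% of all tested genes were higher. TAP1 (ENSG00000168394, chromosome 6, 32845209 to 32853978, minus strand), one subunit of the peptide transporter, had 224, 223 and 216 CPM in CD38 KO libraries and 192, 179 and 176 CPM in WT libraries. Its log2 fold change was 0.27 ± 0.0424 (SE, edgeR adjusted p = 1.68e-05). TAPBP (ENSG00000231925, chromosome 6, 33299694 to 33314387, minus strand) encodes tapasin, which bridges TAP and the waiting class I molecule. It had 988, 969 and 961 CPM in CD38 KO libraries and 866, 778 and 828 CPM in WT libraries, a log2 difference of 0.24 ± 0.0390 (SE) at an adjusted p of 3.16e-05 in edgeR. In both genes every CD38 KO library lay above every WT library.

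TAPBPL (ENSG00000139192, chromosome 12, 6451690 to 6466517, plus strand) encodes TAPBPR, a tapasin relative that edits the bound peptide outside the loading complex. It had 113, 118 and 113 CPM in CD38 KO libraries against 84.8, 79.7 and 80.1 CPM in WT libraries, without overlap. The log2 fold change was 0.49 ± 0.0454 (SE, edgeR adjusted p = 1.22e-08), or 1.41-fold. In the annotation 10.63% of its exon bases lie opposite VAMP1 exons, and 9.49% of TAP1 exon bases lie opposite the antisense gene PSMB8-AS1. Whether counting used strand is not stated in the labels. VAMP1 had 999 to 1089 counts per CD38 KO library and 912 to 1075 per WT library, against at least 5258 for TAPBPL, and rose by 0.27 on the log2 scale. PSMB8-AS1 had 524 to 623 counts per CD38 KO library and 302 to 402 per WT library, against at least 11570 for TAP1.

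NLRC5 (ENSG00000140853, chromosome 16, 56989485 to 57083531, plus strand), the class I transactivator, showed the largest rise of the 9. It had 13.2, 13.8 and 11.6 CPM in CD38 KO libraries and 6.47, 5.90 and 5.69 CPM in WT libraries. Each CD38 KO library was above each WT library, and the counts behind these levels were 721 to 841 in CD38 KO and 374 to 479 in WT. The mean was 12.9 ± 1.13 CPM in CD38 KO and 6.02 ± 0.402 CPM in WT (SD, n = 3 each). Its log2 fold change was 1.10 ± 0.106 (SE, edgeR adjusted p = 2.70e-08), or 2.14-fold. Per kilobase NLRC5 remained the lowest of the 9 in both groups, at 1.04 CPM in CD38 KO and 0.486 CPM in WT.

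The other genes of the route from protein to loaded molecule were read as a list of 18, of which 7 rose, 1 fell and 10 did not pass the test (median log2 fold change 0.11). The 8 changed genes of 18 are no larger a share than the 44.4% of all tested genes, so the number changed is not a result about this list. Of 5 genes of the immunoproteasome and its activator, 4 rose. PSMB8, an interferon-inducible catalytic subunit, was at 95.6 ± 4.14 CPM in CD38 KO and 66.2 ± 1.81 CPM in WT (SD, n = 3 each, log2 fold change 0.53). PSMB9, the catalytic subunit encoded next to TAP1, rose by 0.36, and the activator subunits PSME2 and PSME1 rose by 0.39 and 0.18 on the log2 scale. The catalytic subunit PSMB10 had a log2 fold change of 0.13 and an edgeR adjusted p of 0.0700.

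Of the 5 loading genes outside the 9, TAP2, the partner subunit of TAP1, rose to 15.4 ± 0.833 CPM in CD38 KO, against 11.6 ± 0.0476 CPM in WT (SD, n = 3 each, log2 fold change 0.41). The chaperone CALR rose by 0.23. CANX, PDIA3 and UGGT1, a chaperone, a disulfide isomerase and a folding sensor of the same compartment, had log2 fold changes of -0.000861, -0.00344 and 0.0843 and did not pass. Peptide trimming genes made up 6 of the list, and ERAP2, an aminopeptidase of the endoplasmic reticulum, was the 1 that fell, by 0.21 on the log2 scale to 132 ± 6.28 CPM in CD38 KO, against 152 ± 6.73 CPM in WT (SD, n = 3 each). ERAP1, NPEPPS, LNPEP, TPP2 and HM13 had log2 fold changes of -0.0179, 0.0432, 0.25, -0.000179 and -0.00175 and did not pass. LNPEP was the least even of these, with 29.7 to 41.4 CPM over the CD38 KO libraries.

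**Figure D4:**
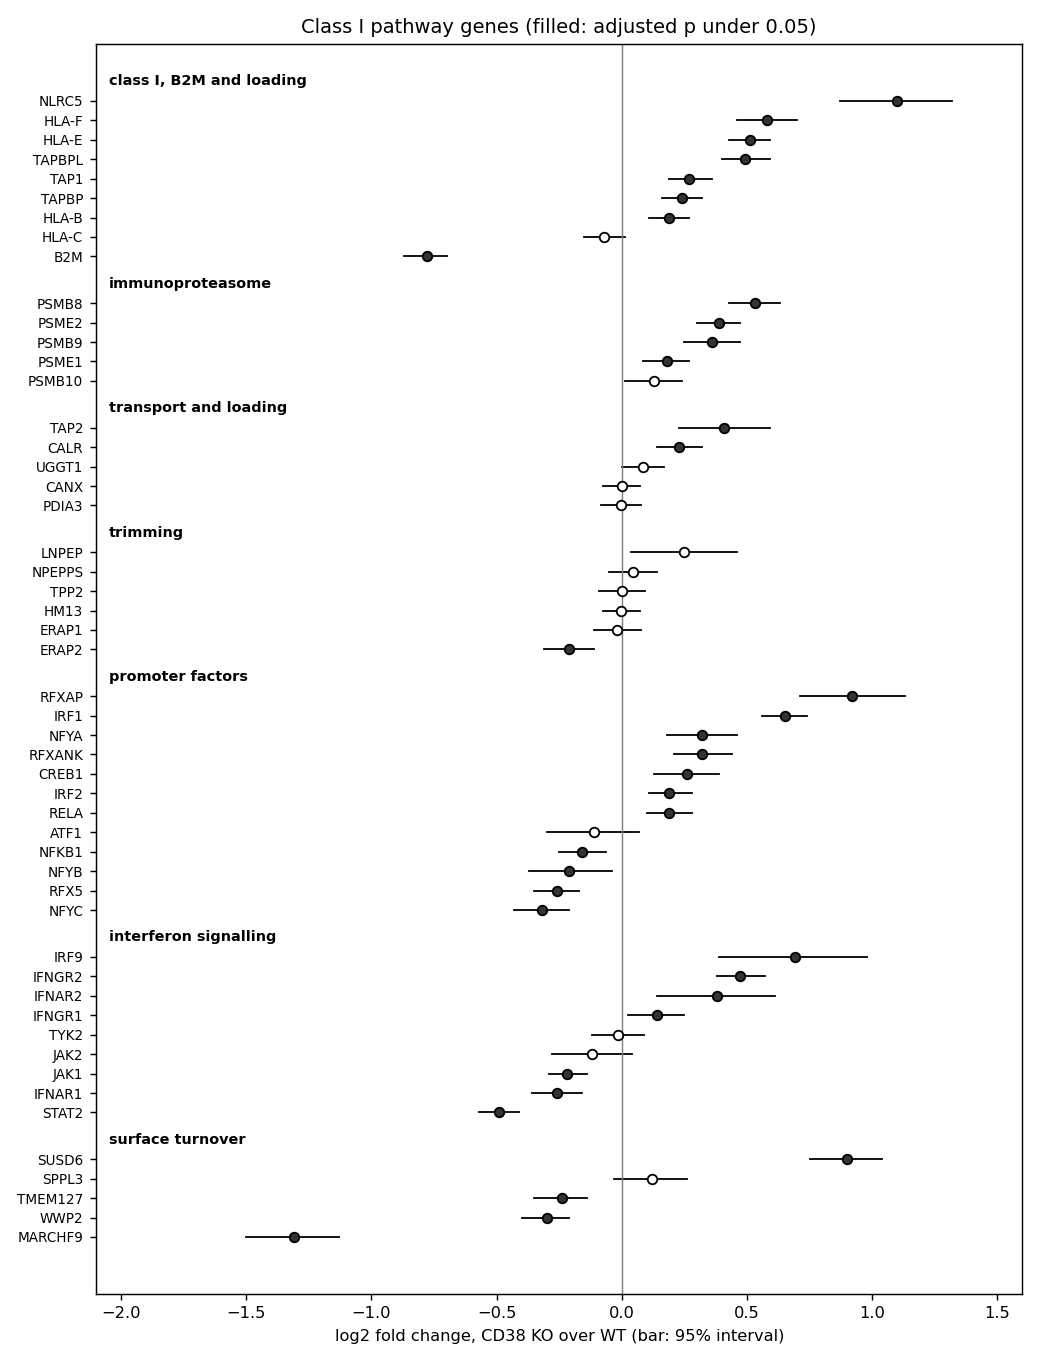
Log2 fold change of CD38 KO over WT with its 95% interval for the 9 genes and for named genes of the other lists by role, filled where the edgeR adjusted p was under 0.05. NLRC5 at 1.10 and B2M at -0.78 are the ends of the first group, the immunoproteasome points all lie above 0, and 5 of 6 trimming genes are open.

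Of 12 factors known to act at class I promoters, 7 rose and 4 fell (median log2 fold change 0.19), beside 22.8% higher and 21.6% lower over all tested genes. IRF1, an interferon-induced activator, was at 192 ± 8.45 CPM in CD38 KO and 123 ± 2.65 CPM in WT (SD, n = 3 each, log2 fold change 0.65, edgeR adjusted p = 8.65e-11). The 3 subunits of the RFX complex, with which NLRC5 acts, changed in different directions. RFXAP had 14.3, 12.7 and 15.1 CPM in CD38 KO libraries and 6.94 to 7.86 CPM in the 3 WT libraries (log2 fold change 0.92), and RFXANK rose by 0.32. RFX5, which binds DNA, was lower at 114 ± 3.75 CPM in CD38 KO and 136 ± 2.22 CPM in WT (SD, n = 3 each, log2 fold change -0.26). The subunits of the Y box factor NF-Y also differed in direction. NFYC and NFYB were lower, with log2 fold changes of -0.32 and -0.21, and NFYA was higher by 0.32.

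Interferon signalling genes also split, with 5 of 10 higher and 3 lower (median log2 fold change 0.061), where 22.8% of all tested genes were higher and 21.6% lower. STAT2, a transcription factor of the type I interferon response, was at 233 ± 5.57 CPM in CD38 KO and 327 ± 10.7 CPM in WT (SD, n = 3 each, log2 fold change -0.49). The receptor chain IFNGR2 rose by 0.47, and the kinase JAK1 had a log2 fold change of -0.22.

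B2M also pairs with class I-like chains, and among 8 genes listed for these or handled with them only MR1 was well expressed. MR1, which presents vitamin B metabolites, was lower at 97.8 ± 2.03 CPM in CD38 KO, against 126 ± 2.96 CPM in WT (SD, n = 3 each, log2 fold change -0.36, edgeR adjusted p = 4.44e-07). HFE and FCGRT were below 1 CPM in every library, and the 5 CD1 genes had at most 3 counts in a library and were not tested. Of 5 genes that act on class I at the surface, 1 rose and 3 fell, against a background of 44.4% changed, 22.8% higher and 21.6% lower. SUSD6, TMEM127 and WWP2 have been described as a module that sends class I molecules to degradation. SUSD6 rose to 38.9 ± 0.313 CPM in CD38 KO, against 20.8 ± 1.67 CPM in WT (SD, n = 3 each, log2 fold change 0.90), and TMEM127 and WWP2 had log2 fold changes of -0.24 and -0.30. The ubiquitin ligase MARCHF9 was lower at 8.69 ± 0.726 CPM in CD38 KO and 21.6 ± 0.732 CPM in WT (SD, n = 3 each, log2 fold change -1.31).

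The position of the genes was examined next, and 2 of the 9 moved in the same direction as most genes within 5 Mb of them. Over all tested genes 21.6% were lower and 22.8% higher. Among the 5 tested protein-coding genes on either side of B2M, 7 were lower, 2 higher and 1 not past the threshold. The median log2 fold change of these neighbours was -0.46. The lower ones include SPG11 (46.6 ± 1.51 CPM in CD38 KO and 74.8 ± 4.51 CPM in WT, log2 fold change -0.68), GOLM2 (-0.62), CTDSPL2 (-0.52), EIF3J (-0.47) and TRIM69 (-0.39), and at lower levels SORD (-0.45) and SLC28A2 (-1.72). PATL2, which lies head to head with B2M, rose from a low level by 0.34, and DUOX1 rose by 1.10, at 2.38 ± 0.150 CPM in CD38 KO and 1.11 ± 0.177 CPM in WT (SD, n = 3 each). SHF was below 1 CPM in every library, with a log2 fold change of -0.20.

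The wider stretch was summarised after the neighbours had been seen, over the 292 protein-coding genes of chromosome 15 with a mean of at least 5 CPM. From the first such gene to 10 Mb beyond B2M, 95 of 112 genes were lower and 4 higher in CD38 KO, with a median log2 fold change of -0.60. Between 10 and 25 Mb beyond B2M, 21 were higher and 20 lower of 67 (median 0.037). Beyond 25 Mb, 89 were higher and 10 lower of 113, with a median of 0.47. Of all tested genes with a mean of at least 5 CPM, 30.5% were lower, and of all tested genes at any level 22.8% were higher. Among genes with a mean of at least 5 CPM, B2M lay in an unbroken run of 17 called lower, SERF2 to DUT. The others of the run had a median log2 fold change of -0.65, and B2M was the sixth lowest. PATL2 and DUOX1, both higher, lie within this span and were left out because their means were below 5 CPM. PDIA3, just outside this run, had a log2 fold change of -0.00344. DNA copy number was not measured, and its part in the fall of B2M was not tested.

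**Figure D5:**
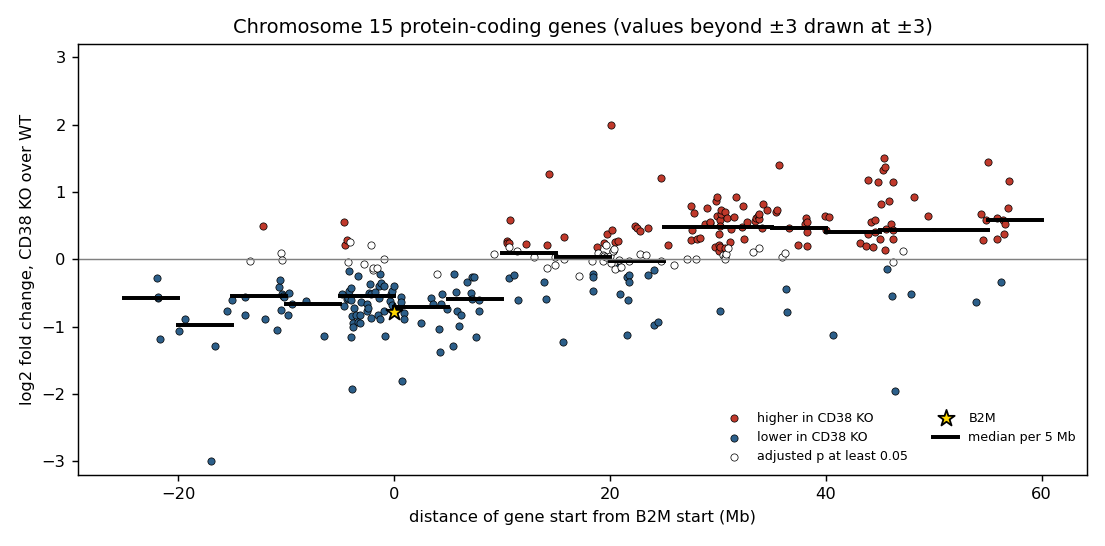
Log2 fold change of CD38 KO over WT for 292 protein-coding genes of chromosome 15 with a mean of at least 5 CPM, by distance of the gene start from B2M, with the median per 5 Mb as bars and B2M as a star. Medians per 5 Mb lie between -0.98 and -0.54 up to 10 Mb beyond B2M and between 0.41 and 0.59 beyond 25 Mb.

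TAPBPL likewise lay among genes that rose. Of 59 protein-coding genes at 5 CPM or more within 5 Mb of it on chromosome 12, 41 were higher and 5 lower (median 0.39). Tested genes of any type at that level over the whole chromosome had a median of -0.16, with 47.1% lower. Over all tested genes 22.8% were higher and 21.6% lower, and 30.5% of those at 5 CPM or more were lower. For the genes on chromosome 6 and for NLRC5 the medians within 5 Mb were near 0. Closer by, the picture differed for TAP1. Among the 5 tested protein-coding genes on either side of it, 5 were higher and 4 lower. Their median was 0.25, beside 0.27 for TAP1, and the higher ones include PSMB8, TAP2 and PSMB9. On that scale the median was 0.042 around TAPBP and -0.038 around NLRC5. Within 5 Mb of HLA-E, 36 of 113 genes were higher and 29 lower, with a median of 0.065 beside 0.51 for HLA-E itself. The 32 genes within 5 Mb of NLRC5 had a median of -0.0071, with 10 higher and 10 lower, beside 1.10 for NLRC5.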

How the data were processed

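RNA of 6 MM.1S libraries was compared, 3 CD38 KO and 3 WT. The values are raw read counts per gene, deposited by the authors in 1 table. STAR 2.7.9a, Partek and DESeq2 appear, with no step assigned to any, per the submitters' processing notes. Genome build, annotation, counter and strandedness: not given in the sources used here. Of 60871 lines, 200 repeated an identifier with the same counts, which left 60671 genes. Positions and exon lengths came from GENCODE 29 (GRCh38), and promoters from RefSeq GRCh38.p14.

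The test was edgeR 4.0.16 in R 4.3.3 (quasi-likelihood, TMM, filterByExpr, robust, no covariate), CD38 KO over WT across all tested genes, and was tested on simulated data. Standard errors are the log2 fold change divided by the root of the F statistic. Every pair of libraries of a group differed by more than sampling noise (chi-square per degree of freedom at least 5.49). Same-numbered libraries did not deviate together.

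The 9 genes and the other lists were chosen with earlier results of these data known. Besides CD38, named genes are the 9, all tested proteasome, loading and trimming genes, up to 4 changed genes of each other list with the smallest adjusted p, and the neighbours of B2M. HLA-G, RFXANK, NFYA, NFYB, cell type markers and list members near 0 were named after their values were seen. Some list members are counted in their lists and are not reported here by name. Alternatives changed the scaling (RLE, upper quartile, library size alone), the count filter, the tool (DESeq2 1.42.0, limma-voom with limma 3.58.1), the replicate block, mitochondrial genes and each library in turn. Principal transcript lengths and a fit without chromosome 15 genes were added after seeing the data.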

Additional observations from a re-analysis of the deposited data

How the results depend on the processing

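B2M kept its fall and 7 of the 9 genes their rise in the 15 alternatives listed for each, with log2 fold changes of -0.87 to -0.76 for B2M, 0.11 to 0.23 for HLA-B and 1.01 to 1.17 for NLRC5. Without the other chromosome 15 genes B2M was at -0.78. That fit keeps the counts of B2M and changes only the scaling and spread, so it cannot bear on the stretch around B2M. The number of the 9 called lower was 2, HLA-C being added, with library size alone, where 3 of the 18 pathway genes were lower. It ranged from 1 to 2 over the fits that leave out a library. With library size alone, the median of all genes moved by -0.083 on the log2 scale and 39.5% of all calls were higher, against 51.4% with TMM. With the replicate number as a block 8918 genes were called, against 8934 without it, 7 of the 9 were higher and 1 lower, and B2M was at -0.78. The deviations of same-numbered libraries correlated at 0.0337, -0.0080 and -0.0207, so the numbers pair nothing in these data. Counts of heavy chains per B2M count were 0.981 in CD38 KO and 0.552 in WT for HLA-B and HLA-C only, and 1.93 in CD38 KO and 1.01 in WT for all class I genes and pseudogenes, 1.78 and 1.92 times as high in the clone. B2M per kilobase was 1.80 times HLA-C in CD38 KO and 2.95 times in WT by principal transcript length, a change made by the lengths alone. With 3 libraries a group and 1 clone, differences among clones could not be measured.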
